A study of Mus musculus with 6 samples.

Results

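The 10 genes described here belong to the T cell receptor complex and its first signalling steps, and were chosen by symbol from the 47729 genes of the deposited table. They are the CD3 chains Cd3d, Cd3e and Cd3g, the zeta chain Cd247, the co-receptors Cd4 and Cd8a, the kinases Lck and Zap70, and the surface glycoproteins Cd2 and Thy1. All 10 were found and all had counts in each library. The libraries came from the epidermis of wild-type C57BL/6 mice, 3 from skin given a gel with AKBA and 3 from skin given a control gel. AKBA commonly stands for a boswellic acid derivative from Boswellia resin, though the labels give only the abbreviation. Epidermis was split from dermis with Dispase II before RNA extraction. Each control library is also described as IMQ with a number, an abbreviation left unexplained, and the labels name no agent other than the gels. The labels do not tie libraries to animals. The p-values therefore set the gel difference against the spread between libraries, which may not be that between animals.

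The T cell receptor binds antigen through a pair of variable chains, alpha with beta or gamma with delta, that have almost no cytoplasmic part of their own. The CD3 chains and the zeta chain carry the signal. Lck, which Cd4 and Cd8a can bind, phosphorylates the tyrosine motifs in the tails of these chains. Zap70 docks there and passes the signal on. In mouse skin the epidermis holds dendritic epidermal T cells, gamma-delta cells that usually lack CD4 and CD8 and carry much Thy1, while the dermis holds further gamma-delta and alpha-beta T cells.

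The libraries held 19066045 to 22760432 counts, so 3 counts correspond to 0.132 to 0.157 CPM, the unit of a count scaled to the size of its library. Replicate libraries differed by more than counting error (chi-square per degree of freedom of at least 30.8), and each was treated as 1 sample. This does not show whether they came from different animals. The 4 keratinocyte markers, which define epidermis, summed to 41385 to 60755 CPM in AKBA gel libraries and 40788 to 55662 CPM in control gel libraries. Of these, Krt14 and Krt5 had negative log2 fold changes, AKBA gel over control gel (-1.22 ± 0.45 and -0.24 ± 0.26). Krt10 and Krt1 had positive ones (0.95 ± 0.38 and 0.50 ± 0.34), and none of these passed after edgeR adjustment. Other tissue was present too. The 6 fibroblast markers summed to 19437 to 25765 CPM in AKBA gel libraries and 18754 to 35288 CPM in control gel libraries. The 8 macrophage markers summed to 1529 to 1661 against 1704 to 2346 CPM. The macrophage sums did not overlap, an order that 9.1% of all genes tested had singly, and were not tested. The 5 Langerhans cell markers summed to 847 to 1348 against 852 to 1015 CPM, the 4 endothelial markers to 166 to 302 against 288 to 380 CPM, and the 4 muscle markers to 3409 to 3931 against 2621 to 5762 CPM. Among the Langerhans cell markers, Cd207 was at 10.3, 12.5 and 7.24 CPM with AKBA gel and 5.81, 4.58 and 2.83 CPM with control gel. Its groups did not overlap, an order of 9.28% of all genes tested (log2 fold change 1.18 ± 0.31, edgeR adjusted p = 0.331). Cd74, H2-Aa, H2-Ab1 and Cd86 overlapped between the gels. Markers of other lymphocytes were low. The 6 natural killer cell markers summed to 1.49 to 1.82 against 1.18 to 2.76 CPM, and the 5 B cell markers to 2.05 to 2.80 against 2.10 to 3.78 CPM, with Ms4a1 at 0 in the AKBA libraries and at 1 or 2 counts in the control libraries. In whole tissue, fewer T cells and less RNA per T cell cannot be told apart.

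The promoters of the genes for the signalling chains are shown because these genes are measured as 1 complex and Cd3d, Cd3e and Cd3g are neighbours. On GRCm38 the last 3 lie within 40056 bases of chromosome 9, and Cd3g and Cd3d point away from each other with starts 1355 bases apart. Each sequence below is the 250 bases before the transcript start on the gene's own strand, from RefSeq on GRCm38.p6; 7 of the 10 genes had an entry. Capitals mark matches to AGGAAG, the core bound by ETS factors, or to CAGNTG, an E-box, on either strand.
Cd3d: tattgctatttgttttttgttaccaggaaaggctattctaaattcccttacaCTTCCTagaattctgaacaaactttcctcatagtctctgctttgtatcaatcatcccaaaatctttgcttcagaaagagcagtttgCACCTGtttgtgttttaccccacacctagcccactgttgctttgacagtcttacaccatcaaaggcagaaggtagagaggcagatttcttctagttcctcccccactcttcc
Cd3g: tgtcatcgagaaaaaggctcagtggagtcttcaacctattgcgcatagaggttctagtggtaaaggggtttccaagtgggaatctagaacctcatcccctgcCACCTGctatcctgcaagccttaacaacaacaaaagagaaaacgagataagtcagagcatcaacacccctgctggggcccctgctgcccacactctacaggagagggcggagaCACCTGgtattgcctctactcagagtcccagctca
Cd3e: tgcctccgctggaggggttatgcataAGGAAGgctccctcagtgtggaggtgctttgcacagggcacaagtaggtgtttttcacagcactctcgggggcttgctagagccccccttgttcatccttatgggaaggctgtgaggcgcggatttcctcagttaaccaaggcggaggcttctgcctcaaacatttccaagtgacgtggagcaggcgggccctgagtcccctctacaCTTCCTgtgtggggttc
Cd247: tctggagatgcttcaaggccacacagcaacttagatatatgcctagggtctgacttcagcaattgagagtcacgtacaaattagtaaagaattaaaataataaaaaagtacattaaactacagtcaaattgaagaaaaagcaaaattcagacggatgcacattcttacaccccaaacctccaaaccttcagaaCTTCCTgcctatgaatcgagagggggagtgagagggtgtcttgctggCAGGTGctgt
These windows are chr9:44981536-44981785 (plus strand) for Cd3d, chr9:44980432-44980681 (minus) for Cd3g, chr9:45009612-45009861 (minus) for Cd3e and chr1:165788431-165788680 (plus) for Cd247. The ETS letters were found in Cd3d, Cd247 and, at 2 places, Cd3e, and in 29.5% of 32851 promoter windows of the same length. E-box letters were found in Cd3d, Cd247 and, at 2 places, Cd3g, against 44.8% of all windows. None of the 4 held TATAAA, which 12.4% of windows held, or TGTGGT, the core bound by RUNX factors, which 14% held. No marked match overlapped another, and a match describes letters only.

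For no CD3 chain was a difference between the gels larger than the spread between libraries found. Cd3g, the gamma chain that pairs with epsilon (chromosome 9, 44969572 to 44980431), was at 6.38, 5.79 and 7.33 CPM in AKBA gel replicates 1 to 3, against 7.95, 5.76 and 8.58 CPM in control gel replicates 1 to 3. The groups overlapped, and the lowest library was a control. On the log2 scale, AKBA gel over control gel, its fold change was -0.19 ± 0.20 (SE), with a 95% interval of -0.67 to 0.29 and an edgeR adjusted p of 0.714. Cd3d, the delta chain (44981786 to 44987339), was at 1.91, 1.91 and 2.26 CPM with AKBA gel and 2.57, 1.79 and 3.02 CPM with control gel. Again control replicate 2 was lowest and control replicate 3 highest, with a log2 fold change of -0.27 ± 0.26 (interval -0.89 to 0.34, edgeR adjusted p = 0.68).

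Cd3e, the epsilon chain present in every CD3 pair (44998740 to 45009627), was at 2.70, 2.39 and 3.11 CPM with AKBA gel and 5.38, 2.62 and 2.63 CPM with control gel. Control replicate 1 stood alone, with 113 counts beside 60 and 55 in the other control libraries, and the remaining 5 libraries overlapped. The log2 fold change of Cd3e was -0.37 ± 0.33 (interval -1.14 to 0.40, edgeR adjusted p = 0.652), and without control replicate 1 it was 0.07. Cd247, the zeta chain with the largest number of signalling motifs (chromosome 1, 165788681 to 165877277), was at 7.46, 4.25 and 7.88 CPM with AKBA gel and 7.90, 5.33 and 6.52 CPM with control gel. AKBA replicate 2 was lowest and the other AKBA libraries lay within the control range. Its log2 fold change was -0.01 ± 0.27 (interval -0.64 to 0.63, edgeR adjusted p = 0.992). Cd247 overlaps part of Pou2f1 on the opposite strand, a gene with 363 to 720 counts a library, and no source says whether strand was used in counting, so reads of the overlap cannot be assigned with certainty. Cd3e overlaps the antisense gene Gm48719, and the same limit holds there.

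**Figure D1:**
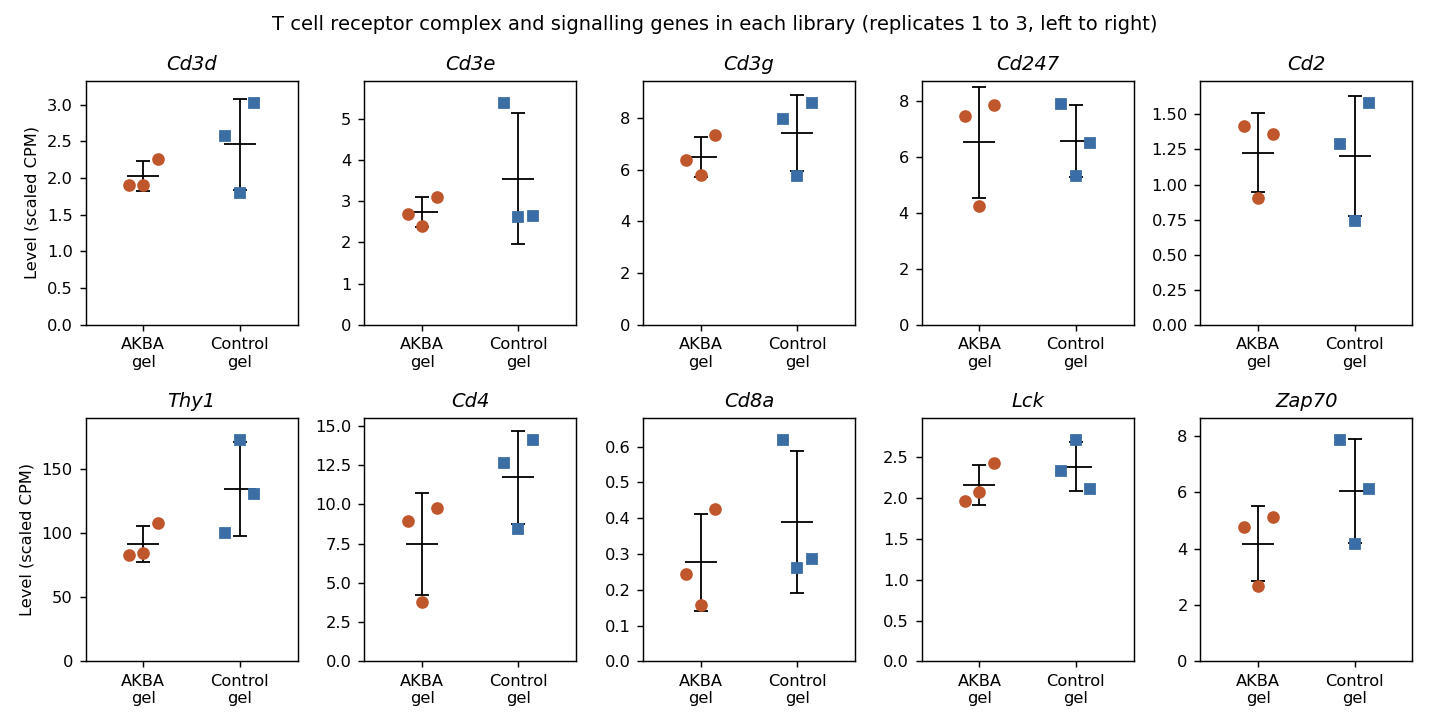
Level of each of the 10 genes in each library, in CPM after library scaling on axes that start at 0 (circles, AKBA gel; squares, control gel; line and bars, mean ± SD of 3 libraries). The groups overlap for all 10 genes, with Thy1 at 82.9 to 108 CPM with AKBA gel and 99.9 to 173 CPM with control gel, and AKBA replicate 2, the middle circle, is the lowest of all 6 libraries for 5 genes.

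Over all 6 libraries, Cd3g kept a steadier proportion per transcript length to Cd3d than to Cd3e, a contrast that came from the control libraries. With AKBA gel alone, Cd3g over Cd3e was the steadier ratio (SD 0.0533 against 0.203 for Cd3g over Cd3d). The ratio of deposited FPKM values of Cd3g over Cd3d was 4.13, 3.73 and 4.02 with AKBA gel and 3.83, 3.99 and 3.52 with control gel, although Cd3d rested on only 36 to 63 counts a library. The ratio of Cd3g over Cd3e was 3.16, 3.26 and 3.16 with AKBA gel and 1.98, 2.95 and 4.38 with control gel. In the control libraries Cd3e was at 3.83 FPKM in control replicate 1 and 1.68 FPKM in control replicate 3, while Cd3g was at 7.59 and 7.35 FPKM in the same libraries.

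Cd4, the co-receptor of helper T cells, which in mice some dendritic cells also carry (chromosome 6, 124864692 to 124888221), was at 8.93, 3.77 and 9.76 CPM with AKBA gel and 12.6, 8.43 and 14.1 CPM with control gel. Control replicate 2 fell inside the AKBA range, and AKBA replicate 2 was far below all others. The log2 fold change of Cd4 was -0.64 ± 0.36 (interval -1.47 to 0.19, edgeR adjusted p = 0.475), and without AKBA replicate 2 it was -0.33. Cd8a, the alpha chain of the cytotoxic T cell co-receptor (chromosome 6, 71373427 to 71379173), was close to the detection limit with 5, 3 and 10 counts in AKBA libraries and 13, 6 and 6 counts in control libraries. It did not pass the low-count filter and was not tested, and its partner Cd8b1 had 5, 2 and 6 against 8, 1 and 1 counts.

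The balance of the co-receptors leaned to Cd4 in all 6 libraries. The log2 ratio of Cd4 to Cd8a FPKM, with 0.1 added to each, was 3.73, 2.87 and 3.54 with AKBA gel and 3.61, 3.73 and 4.28 with control gel. The means were 3.38 ± 0.46 and 3.87 ± 0.36 (SD, n = 3 each), a difference of -0.49 with a 2-sided exact permutation p of 0.3 (0.6 adjusted over 2 ratios). With 3 libraries against 3 this test cannot give less than 0.1. Cd8a was at only 0.04 to 0.17 FPKM, so the 0.1 FPKM added weighed heavily in this ratio.

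The kinases showed the same overlap. Lck, the first kinase to act (chromosome 4, 129548344 to 129573641), was at 1.96, 2.07 and 2.43 CPM with AKBA gel and 2.33, 2.71 and 2.11 CPM with control gel, a narrow range in both groups. Its log2 fold change was -0.14 ± 0.22 (interval -0.67 to 0.38, edgeR adjusted p = 0.815). Zap70, which binds the phosphorylated CD3 and zeta tails and is also used by natural killer cells (chromosome 1, 36761798 to 36782818), was at 4.76, 2.66 and 5.11 CPM with AKBA gel and 7.86, 4.15 and 6.13 CPM with control gel. Control replicate 2 lay below 2 AKBA libraries. The log2 fold change of Zap70 was -0.53 ± 0.32 (interval -1.28 to 0.23, edgeR adjusted p = 0.512), and it was -0.29 without AKBA replicate 2 and also without control replicate 1.

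Cd2, an adhesion molecule of T and natural killer cells (chromosome 3, 101275899 to 101287939), was at 1.42, 0.904 and 1.36 CPM with AKBA gel and 1.29, 0.742 and 1.58 CPM with control gel, from 17 to 33 counts a library. Replicate 2 was the lowest library in each group, and the log2 fold change was 0.04 ± 0.35 (interval -0.78 to 0.86, edgeR adjusted p = 0.973).

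Thy1, a glycoprotein of mouse T cells that fibroblasts and neurons also carry (chromosome 9, 44043384 to 44048579), had the lowest p of the 9 genes tested. It was at 82.9, 84.5 and 108 CPM with AKBA gel and 99.9, 173 and 131 CPM with control gel. Control replicate 1 lay below AKBA replicate 3, so the groups overlapped. The means were 91.9 ± 14.3 and 135 ± 36.4 CPM (SD, n = 3 each). The log2 fold change was -0.55 ± 0.21 (interval -1.04 to -0.06, edgeR unadjusted p = 0.0318, adjusted p = 0.345).

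The ratio of Thy1 to Cd3g stood apart in 1 library. The FPKM ratio of Thy1 over Cd3g was 8.02, 9 and 9.12 with AKBA gel and 7.75, 18.5 and 9.45 with control gel, and control replicate 2, with 18.5, was also the library with the most Thy1. The log2 ratio of Thy1 to Cd3e, with 0.1 FPKM added to each, averaged 4.72 ± 0.12 with AKBA gel and 4.96 ± 0.94 with control gel (SD, n = 3 each), a difference of -0.24 with a 2-sided exact permutation p of 0.7 (0.7 adjusted over 2 ratios). It was 0.13 without control replicate 2. The 6 fibroblast markers summed to 20130, 19437 and 25765 CPM with AKBA gel and 35288, 27899 and 18754 CPM with control gel. The collagen genes Col1a1, Col1a2 and Col3a1 dominated this sum. They and Dcn were highest in control replicate 1, and Lum in AKBA replicate 3. Pdgfra was highest in control replicate 2, at 77.4, 87.6 and 163 CPM with AKBA gel and 136, 212 and 88.8 CPM with control gel. The part of fibroblasts in the Thy1 values was not tested.

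Counted together, 0 of the 9 genes tested passed an adjusted p of 0.05 by edgeR, as did 0% of all 17023 genes tested, and DESeq2 called none of those 9 beside 292 genes in all (1.68% of those with an adjusted p). At an unadjusted p of 0.05 by edgeR only Thy1 was lower, 1 of 9 beside 7.01% of all genes tested, and no gene of the 9 was higher, beside 6.45%. This count was 0 when AKBA replicate 1, AKBA replicate 2 or control replicate 3 was left out, and without control replicate 2 the 1 gene counted was Zap70 in place of Thy1. None of the 10 had every AKBA library below every control library, an order that 9.1% of all genes tested had, and none had the opposite order, beside 9.28%. Log2 fold changes were negative for 8 of the 9, beside 49.6% of all genes tested, with a median of -0.27 beside 0.00. The authors' deposited table called 273 genes and none of these 10, with its lowest adjusted p at 0.26 for Thy1 (log2 fold change -0.51).

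**Figure D2:**
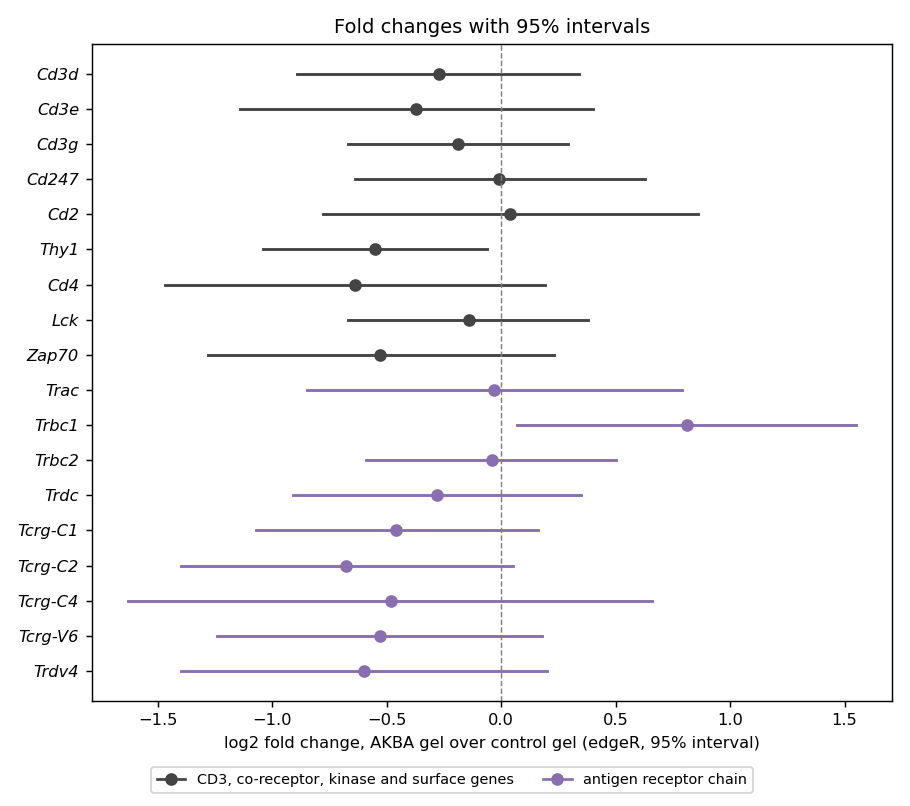
Log2 fold change (AKBA gel over control) by edgeR, with 95% intervals, for the 9 listed genes tested (dark) and 9 antigen receptor chain genes tested (purple); the dashed line marks no difference. Intervals of all genes drawn include 0 except those of Thy1 (-1.04 to -0.06) and Trbc1 (0.07 to 1.55), and neither gene passed after adjustment over all genes.

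AKBA replicate 2 held the lowest value more often than any other library. AKBA replicate 2 was the lowest of the 6 libraries for 5 of the 10 genes (Cd3e, Cd247, Cd4, Cd8a and Zap70), beside 21.8% of all genes tested, and control replicate 2 for 3 (Cd3d, Cd3g and Cd2), beside 19.6%. AKBA replicate 1 was lowest for the other 2 (Thy1 and Lck), beside 14.9%. AKBA replicate 3, control replicate 1 and control replicate 3 were lowest for none, beside 12.3%, 9.93% and 21.5%. No AKBA library was the highest for any of the 10, beside 14.4%, 19.4% and 14.6% of all genes tested for AKBA replicates 1, 2 and 3. The highest was control replicate 1 for 4 genes, control replicate 3 for 4 and control replicate 2 for 2, beside 12.3%, 21.4% and 17.9% of all genes tested. The 10 genes share the cells they come from and are not independent of one another.

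Set against CD45, the pan-leukocyte phosphatase encoded by Ptprc that primes Lck, the sum of the CD3 and zeta chains was higher with AKBA gel. Cd3d, Cd3e, Cd3g and Cd247 together had 316, 295 and 277 counts per 1000 Ptprc counts in AKBA gel libraries and 260, 205 and 244 in control gel libraries. The groups did not overlap for this sum. Of all genes tested, taken singly and divided by Ptprc, 38.5% had this order, so it is common here, and 0.529% the opposite order. The sum per Ptprc was not tested. Taken singly on this scale, Cd3d, Cd3e and Cd3g each overlapped between the gels, and Cd247 did not. Cd4 and Thy1 overlapped on the same scale, with 153, 77.7 and 131 Cd4 counts per 1000 Ptprc counts with AKBA gel and 138, 111 and 166 with control gel, and 1.42, 1.74 and 1.46 Thy1 counts per Ptprc count with AKBA gel and 1.09, 2.28 and 1.54 with control gel. The summed level of the CD3 and zeta chains alone overlapped, at 18.4, 14.4 and 20.6 CPM with AKBA gel and 23.8, 15.5 and 20.7 CPM with control gel. Ptprc itself was at 58.4, 48.6 and 74.3 CPM with AKBA gel and 91.6, 75.8 and 85.1 CPM with control gel. Its log2 fold change was -0.48 ± 0.17 (edgeR adjusted p = 0.339). The 5 general leukocyte markers, Ptprc among them, summed to 304 to 409 against 418 to 503 CPM. Neither Ptprc nor this sum overlapped between the gels, an order of 9.1% of all genes tested, and the sum was not tested.

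**Figure D3:**
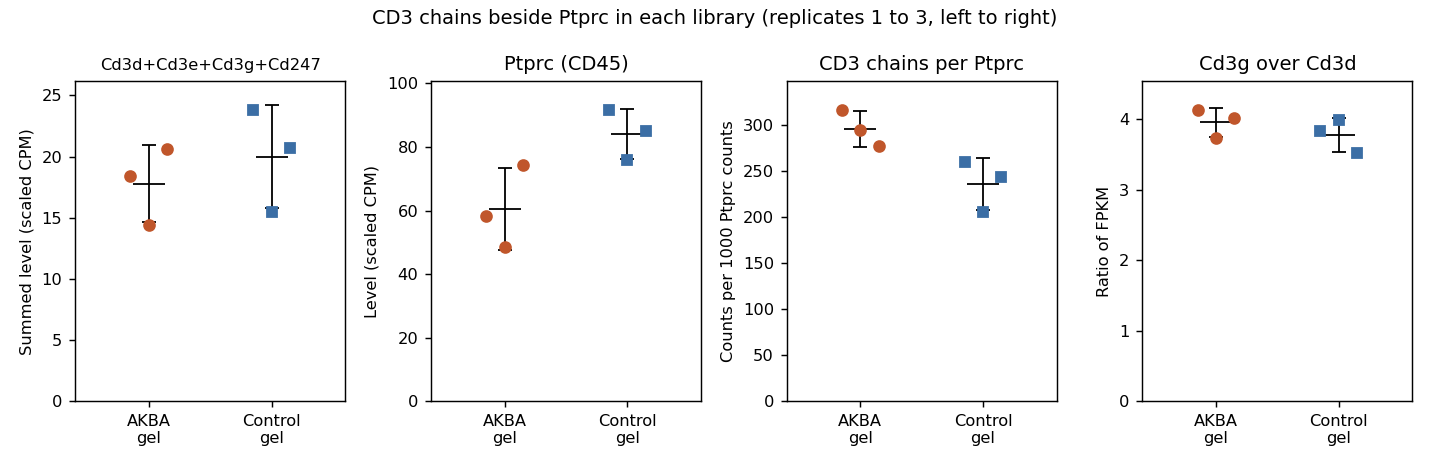
From left to right, the summed level of Cd3d, Cd3e, Cd3g and Cd247, the level of Ptprc (both in scaled CPM), the counts of those 4 genes per 1000 Ptprc counts, and the FPKM ratio of Cd3g over Cd3d, in each library (circles, AKBA gel; squares, control gel; line and bars, mean ± SD of 3 libraries). The summed chains overlap between the gels, the values per Ptprc run from 277 to 316 with AKBA gel and 205 to 260 with control gel, and the last ratio stays between 3.52 and 4.13 in all 6 libraries.

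Per transcript length, Thy1 was far above the rest, at 46.67 to 66.64 FPKM with AKBA gel and 58.82 to 102.55 FPKM with control gel. Cd3g came next, with a mean of 6.49 FPKM over the 6 libraries, above Cd4 (2.37 FPKM) in each library and with no overlap. Cd4, Cd3e (2.20), Zap70 (1.71), Cd3d (1.69), Cd247 (1.23), Lck (0.775) and Cd2 (0.695 FPKM) followed, and the ranges of neighbours in this order overlapped. Within libraries the order was firmer in places: Cd3d was above Cd247, and Cd247 above Lck, in 6 of 6 libraries, while Zap70 was above Cd3d in 3 of 6. Cd8a was last at 0.0917 FPKM, below Cd2 with no overlap.

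The antigen-binding chains that assemble with CD3 were measured too. Trdc, the constant region of the delta chain, was at 2.87, 1.83 and 3.76 FPKM with AKBA gel and 4.42, 2.77 and 2.88 FPKM with control gel. Trac, the alpha constant region, was at 0.970, 0.620 and 1.36 FPKM with AKBA gel and 1.25, 0.770 and 0.940 FPKM with control gel. Trdc thus exceeded Trac per length in each library, by 2.96, 2.95 and 2.76 times with AKBA gel and 3.54, 3.6 and 3.06 times with control gel. These ratios did not overlap, an order that the levels of 9.1% of all genes tested had, and were not tested. The ratio was chosen after values were seen, and Trac rested on 11 to 28 counts a library. Trac was also far below Trbc2, a beta constant region with a mean of 29.9 FPKM. The ratio of Trdc to Trac therefore does not compare gamma-delta with alpha-beta T cells. Tcrg-C1, a gamma constant region, averaged 12.1 FPKM over the 6 libraries.

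Among variable segments, Trdv4, the delta segment that dendritic epidermal T cells and some dermal T cells share, averaged 10.2 FPKM, and Tcrg-V6, a gamma segment of dermal T cells, 4.04 FPKM. Tcrg-V5, the gamma segment of dendritic epidermal T cells, had 8, 5 and 17 counts with AKBA gel and 8, 5 and 10 counts with control gel, and was not tested. Tcrg-V6 was the 1 gene of this list with every AKBA library below every control library, an order of 9.1% of all genes tested (1.67, 0.904 and 1.62 CPM against 2.38, 1.96 and 1.72 CPM), with a log2 fold change of -0.53 ± 0.30 and an edgeR adjusted p of 0.491.

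The beta constant regions stood apart from Trac. Trbc2 averaged 29.9 FPKM and Trbc1 6.98 FPKM, both above Trac in all 6 libraries although alpha and beta chains pair in the receptor. Trbc1 was the 1 chain gene higher at an unadjusted p of 0.05, beside 6.45% of all genes tested, at 7.80, 7.81 and 4.52 CPM with AKBA gel and 4.19, 2.49 and 4.79 CPM with control gel (log2 fold change 0.81 ± 0.32, edgeR adjusted p = 0.351), and Trbc2 had a log2 fold change of -0.04 ± 0.23. Trbc1 and Trbc2 have near-identical constant regions, so the split of reads between them is uncertain. Of the 12 genes of this list, Cd8b1 included, 9 were tested, 8 with negative log2 fold changes (49.6% of all genes tested) and a median of -0.46 (0.00 over all genes), and none passed after adjustment.

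**Figure D4:**
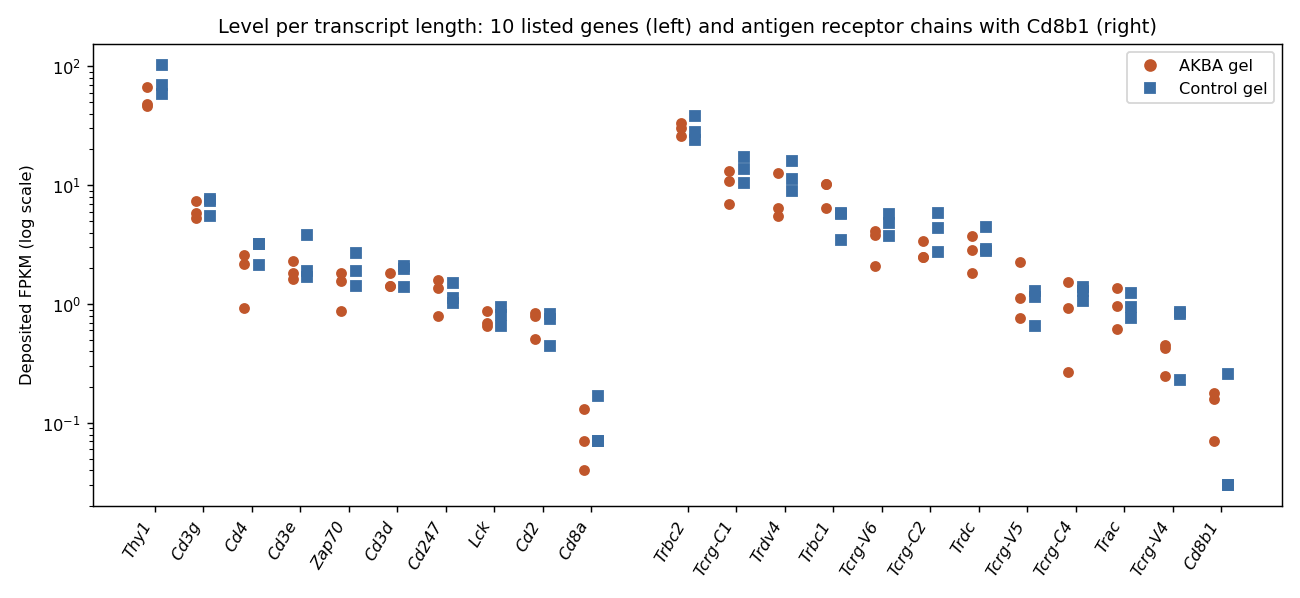
Deposited FPKM on a log axis for the 10 listed genes (left) and for antigen receptor chains with Cd8b1 (right), each ordered by mean level (circles, AKBA gel; squares, control gel; 1 point a library). Thy1 lies above all other genes drawn, Cd8a at 0.04 to 0.17 FPKM below the other listed genes, and Trbc2 above Trac in all 6 libraries.

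Other genes of T cell receptor signalling, from regulators of Lck to adaptors and enzymes further down, were tested as a list of 30, of which 26 passed the low-count filter and 0 passed after adjustment over all genes. At an unadjusted p of 0.05 by edgeR 6 of the 26 were lower with AKBA gel (23.1%, beside 7.01% of all genes tested) and 0 higher, and the median log2 fold change was -0.16. The 6 were Ptpn22, a phosphatase that dampens Lck, the adaptors Sla and Lcp2, the exchange factor Vav1, Bcl10, which links the receptor to NF-κB, and Ptprc. Lcp2, the adaptor SLP-76 phosphorylated by Zap70, was at 8.88, 7.81 and 13.2 CPM with AKBA gel and 18.2, 12.2 and 17.8 CPM with control gel (log2 fold change -0.69 ± 0.24, edgeR adjusted p = 0.339). Vav1 was at 14.9, 13.4 and 17.7 CPM with AKBA gel and 21.0, 18.6 and 21.0 CPM with control gel (-0.40 ± 0.14, adjusted p = 0.339 by edgeR), without overlap. Of the 26 genes tested, 6 had every AKBA library below every control library, beside 9.1% of all genes tested.

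Most of these 6 genes are also expressed by myeloid cells. At the same unadjusted threshold 4 of 8 macrophage markers were lower, beside 7.01% of all genes tested. So were 2 of 4 endothelial markers and 3 of 5 general leukocyte markers, Ptprc among the last. Median log2 fold changes of these lists were -0.35, -0.49 and -0.39. The part of these lists in the values of the 6 genes was not tested. The T cell adaptor Lat was at 4.07, 2.66 and 4.30 CPM with AKBA gel and 5.24, 4.32 and 5.51 CPM with control gel. It was another of the 6 genes without overlap, an order of 9.1% of all genes tested (-0.45 ± 0.24, edgeR unadjusted p = 0.102, adjusted p = 0.463). The most abundant genes of the list per length, Csk (28.4 FPKM), Grb2 (24.2 FPKM) and Plcg1 (16.0 FPKM), are used in many cell types and had log2 fold changes of -0.04 ± 0.09, -0.02 ± 0.09 and -0.02 ± 0.10. Leaving out control replicate 1, control replicate 3 or AKBA replicate 1 brought the count of 6 to 1, and leaving out AKBA replicate 2 brought it to 0.

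Co-stimulatory and checkpoint receptors gave 1 lower gene of 16 tested at an unadjusted p of 0.05 (6.25%, near the 7.01% of all genes), with a median log2 fold change of -0.32. That gene was Havcr2, the receptor TIM-3, which macrophages also carry, at 3.88, 5.05 and 4.43 CPM with AKBA gel and 5.09, 6.94 and 8.14 CPM with control gel (log2 fold change -0.60 ± 0.23, edgeR adjusted p = 0.345). The most abundant per length were Tnfrsf18 (7.26 FPKM), Cd5 (2.98 FPKM) and Tnfrsf4 (2.60 FPKM), with log2 fold changes of -0.48 ± 0.23, 0.16 ± 0.23 and -0.27 ± 0.26. Pdcd1, the checkpoint receptor PD-1, was at 3.48, 1.01 and 3.62 CPM with AKBA gel and 5.52, 4.19 and 4.79 CPM with control gel (-0.83 ± 0.43, edgeR adjusted p = 0.447). Its groups did not overlap, as for 2 of the 20 listed genes with every AKBA library below, beside 9.1% of all genes tested. The list summed to 36.4 to 49.9 CPM with AKBA gel and 55.4 to 63.3 CPM with control gel. These sums did not overlap, an order that 9.1% of all genes tested had singly, and were not tested.

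In the list of subset and effector genes, 22 of 28 were tested, 2 were lower and 2 higher at an unadjusted p of 0.05 by edgeR, and 0 passed after adjustment. The 2 lower genes are 9.09% of those tested, near the 7.01% of all genes, and 6.45% of all genes were higher. The chemokine receptors Ccr7 (0.491, 0.744 and 0.469 CPM with AKBA gel against 0.905, 1.48 and 1.1 CPM with control gel) and Cxcr6 (12.2, 8.61 and 15.8 against 21.4, 14.7 and 20.1 CPM) were the lower ones, with log2 fold changes of -1.04 ± 0.33 and -0.62 ± 0.24. Among the higher ones was the transcription factor Gata3 (0.40 ± 0.15), which epithelial cells of the skin express as well. Gata3 at 20.1 FPKM and Bcl11b at 18.1 FPKM were the most abundant of the list, far above Cd3g. Which cells these levels came from was not tested. Ifng had 1 to 3 counts in AKBA libraries and 0 or 1 in control libraries, and Il2 0 or 1 in both groups, so a difference in these cytokine genes was not detectable at this depth.

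The profile of the summed CD3 and zeta chains across the 6 libraries, centred on the log2 CPM scale, was -0.01, -0.37 and 0.14 with AKBA gel and 0.35, -0.26 and 0.15 with control gel. Of 12256 other genes with at least 5 CPM on average, the 5 nearest by root-mean-square difference over the 6 libraries were Rcsd1 (0.04), F13a1 (0.05), Cep85 (0.05), Uba7 (0.06) and Arhgef6 (0.06). Their log2 fold changes lay between -0.20 and -0.12, and none passed after adjustment by edgeR. Fold changes close to one another follow from the choice by profile. How many of 12256 genes would match a profile of 6 libraries this closely without any link was not tested.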

How the data were processed

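The authors deposited 1 table with whole-number counts and FPKM values per gene and library, and their own log2 fold change, p-value and adjusted p-value. The submitters' processing notes list CASAVA 1.8, RSEM, edgeR and GRCm38 with no roles, and strand-specific counting is not stated. Of the 47729 genes, 19134 had no count. Counts were tested as deposited with edgeR 4.0.16 in R 4.3.3 (TMM scaling, default low-count filter leaving 17023 genes, 2-sided quasi-likelihood F test, Benjamini-Hochberg adjustment over all genes, threshold 0.05), checked on simulated data. CPM are counts scaled after TMM, and standard errors are the log2 fold change over the square root of F. Deposited FPKM served only to compare levels between genes and for the ratios. Intervals and floors cover counting error or library spread only.

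The 10 genes and all lists were chosen with earlier results of these data known. Named from each list were genes past an unadjusted p of 0.05 (at most 4, with all 6 given for signalling), the 3 most abundant per length, and the 5 genes nearest in profile. Marker lists of other cell types are summarised by their sums and counts. Single genes of the keratinocyte, Langerhans cell and fibroblast lists were added after values were seen. Some genes the rule names are not reported here. The values of Lat and Pdcd1, of Tcrg-V6, Tcrg-V5, Cd8b1, Ifng and Il2, the ratios to Ptprc, the ratios between chains and the promoter letters were chosen after values were seen. Positions are from GENCODE M21 on GRCm38.

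Alternatives were DESeq2 size factors, no filter, 5 CPM in 3 libraries, a replicate block, the DESeq2 1.42.0 Wald test, each library left out, and for the ratios a pseudocount of 1 FPKM and scaled CPM.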

Additional observations from a re-analysis of the deposited data

How the results depend on the processing

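The number of genes past an adjusted p of 0.05 was 0 by edgeR with all 6 libraries (2291 genes at an unadjusted p of 0.05), 292 by the DESeq2 Wald test and between 0 and 14 with 1 library left out (14 without control replicate 1). None of the 10 T cell genes passed under any alternative (lowest adjusted p = 0.127, Thy1 without control replicate 1). The number of them past an unadjusted p of 0.05 was 0 to 1 with 1 library left out and 3 with the replicate block (Cd4, Thy1 and Zap70). Same-numbered libraries did not deviate together (correlations 0.07, 0.02 and -0.33), and the replicate number is given here only as a shared number; no gene passed after adjustment with the block. The number with every AKBA library below every control library was 0 to 4 with 1 library left out, where fewer libraries have to be in order. The median log2 fold change was -0.35 to -0.15 with 1 library left out. For the T cell receptor signalling list, the alternatives were added after seeing the data, and the count of 6 lower genes was 0 to 6 with 1 library left out.

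The difference in log2 ratio was -0.67 to -0.24 for Cd4 to Cd8a and -0.77 to 0.13 for Thy1 to Cd3e with 1 library left out. Of 95 values of the 9 genes tested under alternatives 88 kept their sign and 7 did not. Cd247 was at 0.00 with the filter of 5 CPM, and with 1 library left out it ranged from -0.16 to 0.22, Cd2 from -0.22 to 0.29 and Cd3e from -0.56 to 0.07; the cause was not tested. Depth limits Cd8a, Cd8b1 and Tcrg-V5, which did not pass the low-count filter. Where Cd8a could be fitted, its log2 fold change was -0.45 with no filter (adjusted p = 0.789 by edgeR), -0.48 by DESeq2 (no adjusted p), -0.36 without AKBA replicate 1 and -0.19 without AKBA replicate 2.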
